A study of Mus musculus with 54 samples.

Results

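The clustered protocadherins are cell-surface adhesion molecules encoded by 3 neighbouring gene arrays, alpha, beta and gamma. All rows of the deposited count tables whose symbol names a numbered member of these arrays were taken, which gave 58 of 26264 genes: 14 alpha, 22 beta and 22 gamma. The set was picked because alpha members were lower in an F2 testis cross, and the rule does not say which one. The values of the maternal dose 2 and paternal dose 1 crosses of F2 testis, the ones in which an alpha member passed the test, are therefore given as a description only. In the reference annotation (GENCODE for GRCm38, used here for names, order and lengths) the members with an entry lie on chromosome 18; no coordinates are given, since the counts were made on build mm39.

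In the alpha and gamma arrays, each member has its own promoter and a large first exon coding for the extracellular part, which is spliced to constant exons shared by the whole array. Beta members are single-exon genes without constant exons. In neurons, each cell transcribes a small and largely random choice of promoters, under the control of CTCF, cohesin and DNA methylation, and the proteins on neighbouring cells bind only to like proteins. The C-type members at the end of the alpha and gamma arrays (Pcdhac1, Pcdhac2, Pcdhgc3, Pcdhgc4 and Pcdhgc5) are regulated differently from the others. Most of what is known of the family comes from the nervous system.

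The study sequenced polyadenylated RNA of mouse testis at 35 and ovary at 30 days post partum, in 18 groups of 3 libraries, 54 in all. In F1, pregnant dams and then their young drank water with a mixture of ibuprofen (IBU), its metabolite 2-hydroxyibuprofen (2hIBU), diclofenac (DCF) and the synthetic estrogen ethinyl-estradiol (EE2), from 8.5 days post coitum until tissue collection. Dose 1 held 11.3 ng/L IBU, 90 ng/L 2hIBU, 22.5 ng/L DCF and 2.25 ng/L EE2, dose 2 held 113, 225, 112 and 45 ng/L in the same order, and controls received 0.001% ethanol. F2 animals came from 6 crosses: control by control (the control cross), maternal dose 1 and maternal dose 2 (control father, exposed mother), paternal dose 1 and paternal dose 2 (exposed father, control mother) and biparental dose 2. The labels name no strain or litter for the libraries and do not say whether replicates are separate animals, so p-values measure the spread between these libraries, which may be technical, and litter cannot be told apart from dose or cross.

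Library totals were 31.8 to 122.4 M counts in F1 testis, 31.6 to 48.2 M in F2 testis, 36.6 to 57.4 M in F1 ovary and 37.9 to 84.7 M in F2 ovary (M, 1e6 counts). Levels are counts scaled to a library total of 1 M (CPM), and log2 fold changes come from the fit described under processing, with n = 3 libraries per group. A count of 3 is taken as the floor of detection. Germ cell markers stood as the labels say, with 6 of 6 testis germ cell markers higher in control testis and 4 of 4 oocyte markers higher in control ovary in both generations. The lists of somatic cells did not all follow. In F1 controls the Sertoli cell list summed to 666 to 832 CPM in testis and 1819 to 2084 CPM in ovary. The Leydig cell list summed to 767 to 1047 and 4778 to 6536 CPM, and the granulosa cell list to 326 to 369 and 4043 to 4736 CPM. One library went partly against its label. F1 ovary control A held 9216 counts of Prm1 and 5279 of Tnp1, protamine and transition protein genes of spermatids, where the other 8 F1 ovary libraries held 115 to 823 counts of Prm1 and the 18 F2 ovary libraries 0 to 17. The summed alpha level of the ovary is at its highest in that same library, as are Pcdha1, Pcdha2 and Pcdha3, so F1 ovary alpha results that rest on it are given with and without it.

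Testis and ovary used different members of the family, as the map of all members by library shows. In testis, the alpha members summed to 15.3 to 36.4 CPM (median 29.3 over 27 libraries), the beta members to 4.48 to 8.80 CPM (median 7.05) and the gamma members to 21.9 to 43.9 CPM (median 40.1). In ovary, the alpha members summed to 0.124 to 2.54 CPM (median 0.379), or to at most 0.862 CPM without F1 control A, the beta members to 51.0 to 88.3 CPM (median 62.5) and the gamma members to 73.2 to 251.1 CPM (median 163). The summed levels of each array did not overlap between the tissues. Tissue, sex, age and count table cannot be told apart in this comparison, and in whole gonads fewer cells of a type and less RNA per cell cannot be told apart either.

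**Figure D1:**
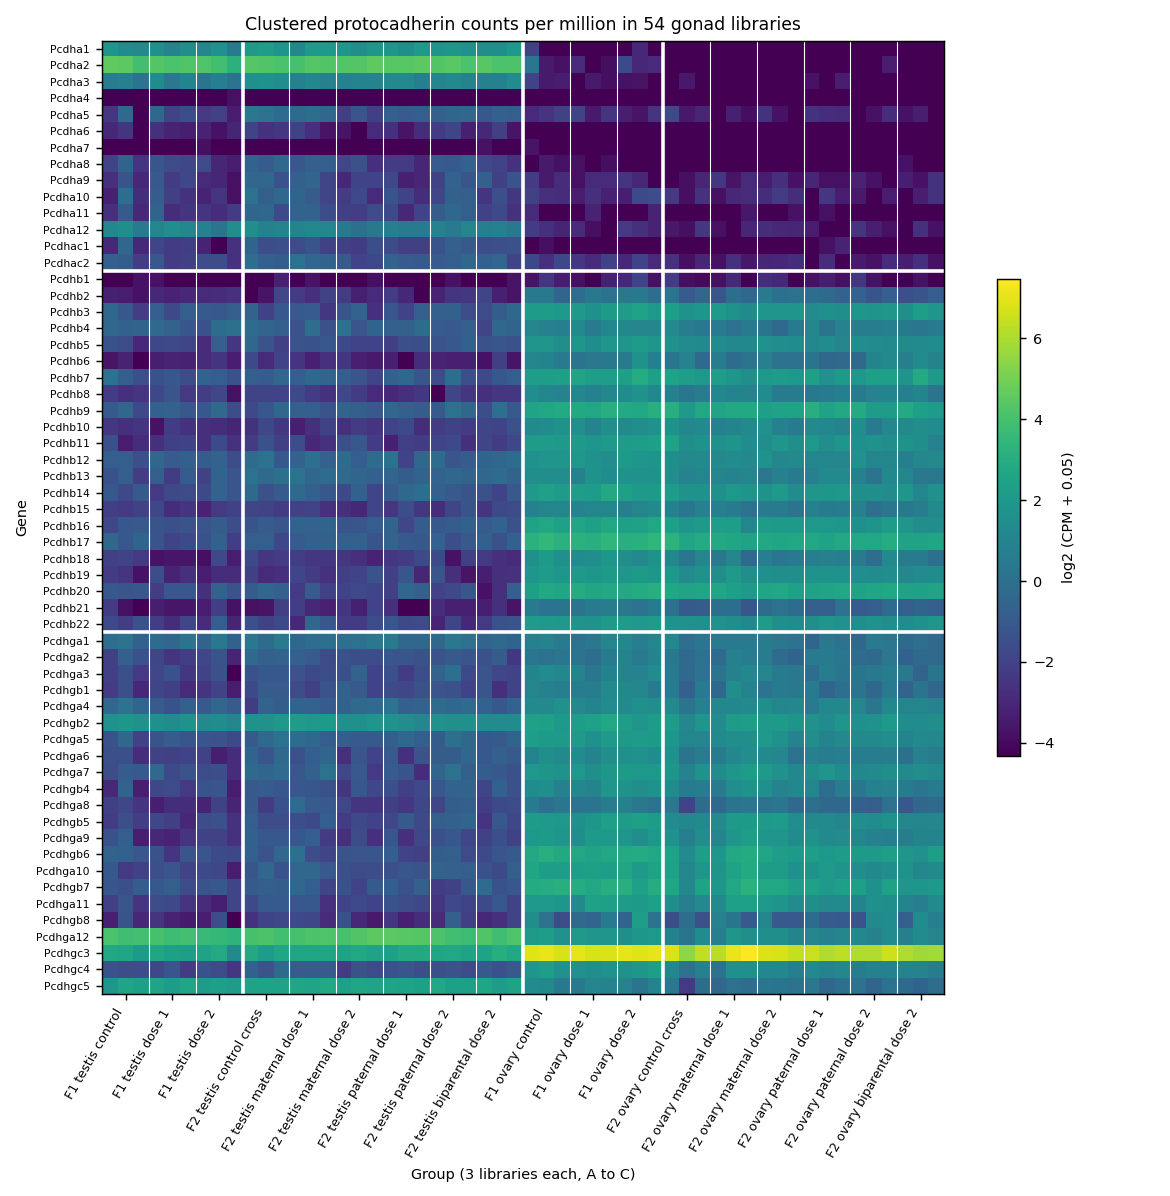
Heat map of log2 (CPM + 0.05) for the 58 members (rows, in array order) in 54 libraries (columns, in groups of 3; broad white lines separate tissues and generations). Alpha members are dark across the ovary columns and beta members are brighter there than in testis; Pcdha2, Pcdhga12 and Pcdhgc3 are the brightest rows, the first 2 in testis and the last in ovary.

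In testis, alpha RNA was mostly that of 1 member. Pcdha2 was at 24.35, 22.9 and 14.7 CPM in the F1 control libraries A, B and C, and at 20.7, 19.1 and 17.0 CPM in the F2 control cross. It made up 71.3% ± 4.08 of alpha CPM in F1 controls and 57.7% ± 0.850 in the F2 control cross (SD, n = 3). Its neighbour Pcdha1 came next, at 3.51, 2.50 and 2.27 CPM in F1 controls and 3.95, 4.67 and 3.41 CPM in the control cross. Pcdha3 was at 1.56, 1.69 and 1.06 CPM in F1 controls and higher, at 2.99, 3.19 and 2.78 CPM, in the control cross. Pcdha12 was at 2.19, 2.84 and 1.43 CPM and then at 2.89, 1.76 and 1.96 CPM. Pcdha12 had the higher mean of the pair in F1 controls, with overlap, and Pcdha3 in the control cross, again with overlap. The first 3 members in the reference order are thus among the 4 highest.

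Per kilobase of exon not shared with another member, Pcdha2 was at 8.27 ± 2.07 CPM in F1 and 7.58 ± 0.759 CPM in F2 control testis. The same scale put Pcdha1 at 1.11 ± 0.265 and 1.61 ± 0.254 CPM and Pcdha12 at 0.870 and 0.890 CPM. Pcdha2 thus stayed well above its neighbours once length was allowed for. At the other end, Pcdha4 was at 0 counts in 26 of 27 testis libraries and 1 count in the other, and at 0 in all 27 ovary libraries. A count of 0 in the shallowest library allows up to 0.0951 CPM. Most of the own exon of Pcdha4, 2410 of 2904 bases, overlaps another gene on the same strand in the reference annotation, and how the counting treated such reads was not tested. Pcdha7 had at most 1 count in any of the 54 libraries.

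The gamma array in testis was led by Pcdhga12, the last of its A-type members in the reference order. It was at 17.4, 14.35 and 15.4 CPM in F1 controls and at 16.6, 17.75 and 14.7 CPM in the control cross, with no overlap with any other gamma member in either group. Pcdhgc3 followed with 6.42, 6.33 and 4.18 CPM and then 6.87, 4.40 and 6.22 CPM. Pcdhgc5 was at 3.67, 5.86 and 5.08 CPM and then at 5.67, 5.73 and 5.61 CPM, so that it and Pcdhgc3 overlapped in both groups. Pcdhgb2 was the next, at 3.12 to 3.72 CPM in F1 controls and 3.13 to 3.81 CPM in the control cross. Per kilobase, Pcdhga12 was at 3.46 and 3.59 CPM, Pcdhgc3 at 1.67 and 1.73 CPM, Pcdhgb2 at 1.20 and 1.22 CPM and Pcdhgc5 at 0.884 and 1.03 CPM.

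The beta array was low in testis and had no leading member. Over the 6 control libraries the highest means were those of Pcdhb4, Pcdhb13 and Pcdhb12. Pcdhb4 was at 0.687, 0.577 and 0.628 CPM in F1 controls and at 0.850, 0.675 and 0.529 CPM in the control cross. Pcdhb13 was at 0.343, 0.535 and 0.169 CPM and then at 1.06, 0.783 and 0.979 CPM, without overlap between the generations. Pcdhb12 was at 0.528, 0.535 and 0.314 CPM and then at 0.827, 1.05 and 0.423 CPM. The order changed with the generation: Pcdhb7 had the highest mean in F1 controls, from 1.06, 0.535 and 0.314 CPM. Pcdhb4 overlapped it there and overlapped Pcdhb13 in the control cross. Pcdhb1, the lowest, had 0 counts in 20 of 27 testis libraries.

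In ovary, gamma RNA was mostly Pcdhgc3, whose protein is known to bind Axin1, a scaffold of the Wnt pathway. It was at 118, 138.8 and 109.7 CPM in F1 controls and at 113, 44.8 and 81.0 CPM in the control cross, between 58.9% and 70.6% of gamma CPM over 27 ovary libraries. Per kilobase it was at 36.1 ± 4.435 and 23.6 ± 10.1 CPM. The next gamma members were Pcdhgb7, at 7.505, 7.91 and 8.70 CPM in F1 controls and 6.05, 2.24 and 5.68 CPM in the control cross, and Pcdhgb6, at 6.85, 8.76 and 7.19 CPM and then 5.76, 2.49 and 4.77 CPM. Within F2, control cross B was the lowest of its group for each of these 3 members.

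Every beta member but Pcdhb1 had at least 10 counts in each of the 27 ovary libraries. Pcdhb17 was at 9.33, 11.3 and 9.22 CPM in F1 control ovary and 9.70, 6.13 and 7.57 CPM in the control cross. Pcdhb9 was at 5.84, 6.45 and 7.39 CPM and then at 8.515, 3.997 and 6.60 CPM. Pcdhb20 was at 5.16, 7.06 and 6.01 CPM and then at 6.75, 5.86 and 6.10 CPM. Their shares of beta CPM over the 27 libraries had medians of 11.0%, 9.42% and 9.27%. Beta RNA in ovary was spread over many members, where gamma RNA was not.

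Alpha members were near the floor in ovary. Between 0 and 2 of the 14 reached 10 counts in any ovary library, and over the 6 control libraries the highest means were those of Pcdha2, Pcdhac2 and Pcdha5. Pcdha2 had 43, 2 and 1 counts in F1 controls A, B and C and 0, 0 and 0 in the control cross. Pcdha1 had 7 counts in F1 control A and 0 in the other 5 control libraries. Pcdhac2 was at 0.246, 0.0986 and 0.245 CPM in F1 controls and 0.109, 0.0189 and 0.0708 CPM in the control cross, and Pcdha5 at 0.0819, 0.118 and 0.200 CPM and then 0.255, 0.0377 and 0.0708 CPM. The Pcdha2 counts of F1 control A stood beside the spermatid RNA of that library, while Pcdhac2 was as high in control C and Pcdha5 was lowest in control A; the part of that RNA in the Pcdha2 count was not tested.

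**Figure D2:**
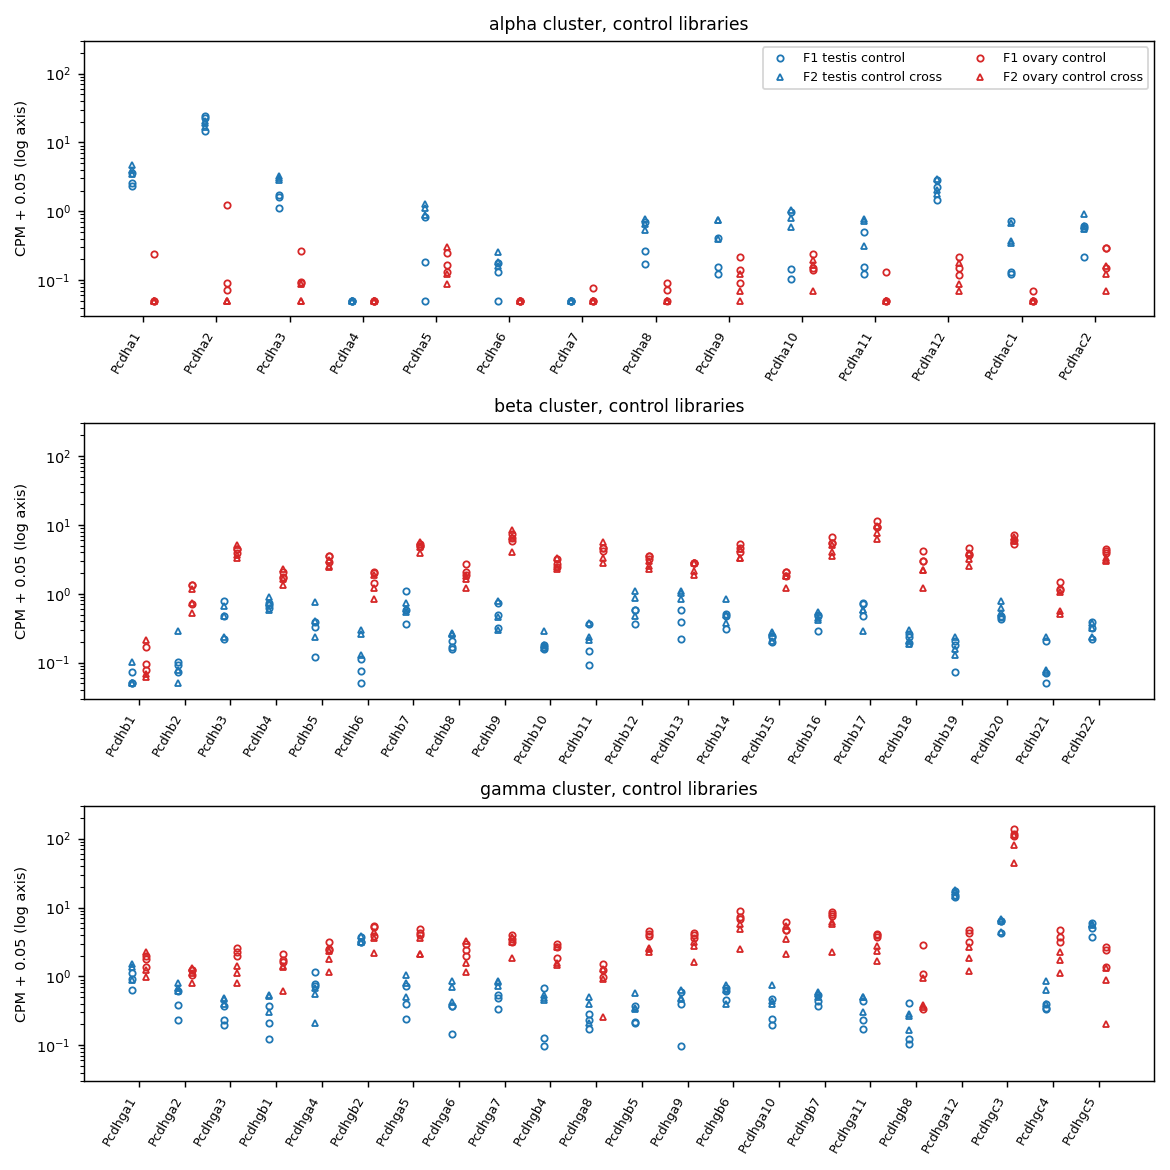
CPM plus 0.05 on a log axis for each member in array order, one point per control library (circles F1, triangles F2; blue testis, red ovary). Pcdha1, Pcdha2, Pcdha3 and Pcdha12 are the highest alpha members in testis, Pcdhga12 and Pcdhgc5 the gamma members that lie higher in testis, and Pcdhgc3 reaches 138.8 CPM in ovary.

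The tissue comparison was tested in controls with all 54 libraries in 1 fit, over 20794 genes, of which 84.7% were called in F1 and 86.5% in F2. Of the members, 54 were tested (11 alpha, 21 beta and 22 gamma); a member low in 1 tissue could enter only through the other, so the counts describe the direction and support nothing further. In F1, 12 members were higher and 39 lower in testis (all genes 43.5% higher and 41.1% lower). Of the alpha members 10 of 11 were higher and 0 lower, and of the beta members 21 of 21 were lower. Of the gamma members 18 of 22 were lower, and Pcdhga12 and Pcdhgc5 were higher. Pcdhga12 differed by 2.43 (log2, SE 0.227, edgeR adjusted p = 1.16e-12) and Pcdhgc5 by 1.68 (SE 0.323, edgeR adjusted p = 1.07e-05), while Pcdhgc3 was lower in testis by -3.997 (log2, SE 0.297, edgeR adjusted p = 1.55e-15).

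In F2, 13 members were higher and 37 lower in testis (all genes 43% higher and 43.4% lower). All 11 alpha members tested were higher, 21 of 21 beta members were lower, and 16 of 22 gamma members were lower, with Pcdhga12 (log2 difference 3.46, SE 0.237, edgeR adjusted p = 1.06e-16) and Pcdhgc5 (3.22, SE 0.345, edgeR adjusted p = 3.53e-11) again higher. Pcdhgc3 differed by -3.45 (SE 0.291, edgeR adjusted p = 4.86e-14). Pcdha2 had 2253 summed counts in the 3 testis and 0 in the 3 ovary libraries of the control cross, at least 1220-fold higher against a floor of 3 counts over the group, and Pcdha1 was at least 257-fold higher. Over the 11 alpha members the median log2 difference was 7.41 as fitted and 5.16 with the 5 members at 0 in ovary set to their bounds, beside -0.05 over all genes. Pcdhgb2 did not pass in either generation (log2 differences -0.06 and 0.33). The scaling factors of the fit differed between tissues, with medians of 0.888 in testis and 1.14 in ovary, a shift of 0.355 in log2 relative to plain CPM.

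Without F1 ovary control A, 11 members were higher and 38 lower in testis in F1, with 9 of 11 alpha members higher; Pcdha5, at 1.62 (log2, edgeR adjusted p = 0.0451) with that library, no longer passed (1.37, edgeR adjusted p = 0.126). The F1 alpha calls also rested on testis control B: without it 6 of 11 alpha members passed, and the difference of Pcdha5 turned to -0.67 (edgeR adjusted p = 0.512). Pcdha1, Pcdha2, Pcdha3 and Pcdha12 passed in both cases. With relative log expression scaling, the median of all genes moved from 0.05 to 0.36 in F1 and from -0.05 to 0.37 in F2, so that 13 members were higher and 38 lower in F1, and 14 and 32 in F2.

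In F1 and F2 controls, 2 and 3 of 14 array regulators were higher in testis and 8 and 7 were lower, a smaller share called than the 84.7% and 86.5% of all genes, so the list does not stand out. Ctcf, the insulator protein that sets the contacts of the array promoters, was at 35.2 CPM in testis and 127 CPM in ovary in F1 (log2 difference -1.42, edgeR adjusted p = 1.01e-13). Dnmt3a, a de novo DNA methyltransferase, was at 22.8 and 216 CPM in the same groups (-2.81, edgeR adjusted p = 2.82e-20). Nipbl, the cohesin loader, went the other way, at 429 and 149 CPM (1.98, edgeR adjusted p = 1.07e-09). Of 5 germ cell counterparts of CTCF and cohesin, 4 were higher in testis in F1 and 5 in F2, such as Stag3, at 529.8 and 16.8 CPM in F1 and 577 and 3.87 CPM in F2 (edgeR adjusted p = 3.78e-15 and 3.22e-18). The F1 ovary mean of Stag3 rests on control A, at 40.6 CPM against 4.64 and 5.08 CPM in the other 2 controls.

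Of the 10 flanking genes tested, 3 and 2 were higher in testis and 6 and 6 were lower, a share near that of all genes (84.7% and 86.5%). Slc25a2 and Taf7, which lie between the beta and gamma arrays, were both higher in testis in both generations: Slc25a2, a mitochondrial ornithine carrier, was at 77.7 and 1.90 CPM in F1 and at 55.3 and 0.192 CPM in F2 (edgeR adjusted p = 1.68e-11 and 7.20e-14). Its F1 ovary mean again rests on control A, at 5.10 CPM against 0.197 and 0.401 CPM. Of the 11 non-clustered protocadherins tested, 1 was higher and 9 were lower in F1, and 1 and 8 in F2, near the share of all genes called in either direction. By direction they leaned to lower in testis, where 41.1% of all genes in F1 and 43.4% in F2 were lower. Pcdh17 was the one that was higher, at 6.39 against 4.48 CPM in F1 (edgeR adjusted p = 0.00185), while Pcdh18 was at 0.315 against 33.9 CPM (edgeR adjusted p = 7.65e-21).

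In F1 testis, no member passed at either dose. At dose 1, 37 members were tested, 0 were called (0.021% of all 19025 genes were), and 2 members had an unadjusted edgeR p under 0.05, both lower (3.18% of all genes were); DESeq2 called 0. The median log2 change was -0.06 over the 7 alpha members, -0.03 over the 13 beta and -0.02 over the 17 gamma members tested, beside -0.01 over all genes. At dose 2, 0 of 37 were called (0.00526% of all genes), again with 2 at an unadjusted edgeR p under 0.05, both lower (1.93% of all genes), and 0 by DESeq2. Pcdha2 was at 18.8, 14.97 and 9.48 CPM at dose 2 and overlapped the controls (log2 change -0.46, SE 0.223, edgeR adjusted p = 0.982). The 7 alpha members tested had changes below 0 at dose 2, from -1.25 to -0.04 with a median of -0.46, where 47.8% of all genes were below 0, and none of the 7 was without overlap. The dose 2 libraries were uneven. Ddx4, a testis germ cell marker, was at 399, 632 and 259 CPM in A, B and C, against 390 to 550 CPM in controls. Library C also held the lowest summed alpha level of the 27 testis libraries, at 15.3 CPM. The part of this unevenness in the alpha changes was not tested.

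The lower alpha members varied widely among F1 testis libraries, controls included. Pcdha5 was at 0.132, 0.770 and 0 CPM in controls A, B and C, at 0.716, 0.220 and 0.310 CPM at dose 1, and at 0.147, 0.191 and 0.0447 CPM at dose 2. Pcdha10 was at 0.0528, 0.919 and 0.0967 CPM in the same controls. Control B stood above the other 2 controls for both. Summed over Pcdha5 to Pcdha11, a stretch chosen after its values were seen, the controls were at 0.686, 3.27 and 0.362 CPM, dose 1 at 2.79, 1.01 and 1.07 CPM and dose 2 at 0.778, 0.574 and 0.358 CPM. The dose 2 libraries stayed below 0.8 CPM, but control A and control C lay there too.

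The same F1 libraries were high in some, not all, of the 6 RNAs listed as nuclear-retained and ribosomal precursor RNAs. That list also holds Lars2, a protein-coding gene for a mitochondrial leucyl-tRNA synthetase, to which the name of the list does not apply. Control B and dose 1 A, the highest for the Pcdha5 to Pcdha11 sum, were also the highest of the 9 F1 testis libraries for Malat1, a nuclear long non-coding RNA (473 and 310.1 CPM, the other 7 at 80.9 to 231.3 CPM), and for Lars2 (1555 and 1237 CPM, the others at 151.5 to 1108 CPM). They were also the highest for Rn45s (229 and 234 CPM). Neat1 and Meg3, also nuclear non-coding RNAs, were highest in dose 2 B, at 112 and 42.1 CPM, where the Pcdha5 to Pcdha11 sum was 0.574 CPM. Kcnq1ot1 was at 128 CPM in control B, 97.1 CPM in dose 1 A and 105 CPM in dose 2 B. The sum of Pcdha1 to Pcdha3 did not single out control B and dose 1 A, at 27.1 and 25.05 CPM against 29.4 CPM in control A. The part of nuclear RNA in the spread of Pcdha5 to Pcdha11 was not tested.

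In F2 testis, the 2 alpha members that passed in a cross lay below the control cross in several crosses, as the plot by cross shows. Pcdha5 was at 1.22, 1.081 and 0.820 CPM in the control cross, at 0.783, 0.897 and 0.749 CPM in the maternal dose 1 cross and at 0.183, 0.387 and 0.187 CPM in the maternal dose 2 cross. It was at 0.5725, 0.479 and 0.516 CPM in the paternal dose 1 cross, at 0.5705, 0.663 and 0.707 CPM in the paternal dose 2 cross and at 0.432, 0.558 and 0.543 CPM in the biparental dose 2 cross. All libraries of the last 4 crosses lay below the control cross. In the order given, 1807, 1369, 968 and 1326 of 19379 genes were lower without overlap in those 4 crosses. The Pcdha5 levels rest on 7 to 53 counts per library.

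Pcdha8 was at 0.597, 0.486 and 0.7145 CPM in the control cross and at 0.404, 0.554 and 0.527 CPM in the maternal dose 1 cross. It was at 0.235, 0.336 and 0.104 CPM in the maternal dose 2 cross, at 0.156, 0.1595 and 0.0704 CPM in the paternal dose 1 cross, at 0.475, 0.459 and 0.602 CPM in the paternal dose 2 cross and at 0.254, 0.2125 and 0.109 CPM in the biparental dose 2 cross. Here the maternal dose 2, paternal dose 1 and biparental dose 2 libraries lay below the control cross, on 3 to 13 counts each. Summed over Pcdha5 to Pcdha11, the stretch chosen after its values were seen, the control cross was at 4.39, 3.65 and 3.02 CPM. The same 3 crosses were at 0.861 to 1.37, 1.01 to 1.69 and 1.28 to 1.73 CPM. The maternal dose 1 cross, at 2.05 to 3.32 CPM, and the paternal dose 2 cross, at 2.12 to 3.26 CPM, overlapped the control cross.

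The leading member did not follow. Pcdha2 was at 16.4, 20.4 and 19.4 CPM in the maternal dose 1 cross, 19.7, 20.0 and 23.4 CPM in maternal dose 2, 20.95, 21.0 and 22.8 CPM in paternal dose 1, 19.3, 21.7 and 17.35 CPM in paternal dose 2 and 21.2, 17.3 and 18.03 CPM in biparental dose 2. Its log2 changes against the control cross ran from -0.02 to 0.16, with SE 0.114 or 0.115, and only in paternal dose 1 did its libraries lie apart from the control cross, all above it. Pcdhga12, the leading gamma member, had changes of -0.07 to 0.34 in the 5 crosses, and its 20.8 to 21.55 CPM in the paternal dose 1 cross lay above the control cross (edgeR adjusted p = 0.282). In the paternal dose 1 cross, 2088 of 19379 genes lay above the control cross without overlap. Pcdha3 was lower without overlap in all 5 crosses, at 1.64 to 2.55 CPM against 2.78 to 3.19 CPM, with changes of -0.71 to -0.53 that did not pass in any (lowest edgeR adjusted p = 0.114). Between 968 and 1807 of 19379 genes were lower without overlap in each cross. The 5 comparisons share the 3 control cross libraries and are not independent.

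**Figure D3:**
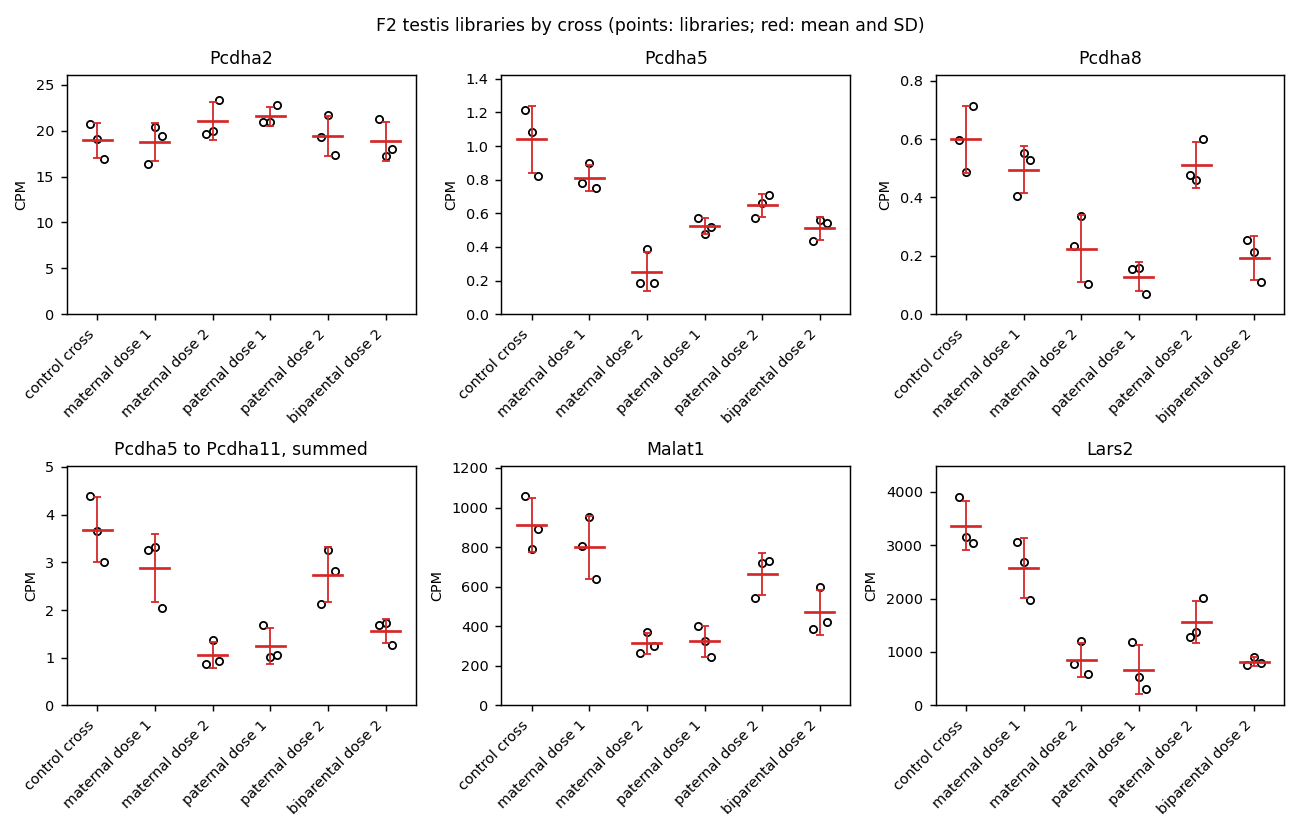
CPM in each F2 testis library (points) by cross, with the mean and SD in red, for Pcdha2, Pcdha5, Pcdha8, the sum of Pcdha5 to Pcdha11, Malat1 and Lars2. Pcdha2 stays between 16.4 and 23.4 CPM, while the other 5 panels are lowest in the maternal dose 2, paternal dose 1 and biparental dose 2 crosses, except that Pcdha5 is alike in paternal dose 1, paternal dose 2 and biparental dose 2.

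In the maternal dose 2 cross, Pcdha5 was the member called, with a log2 change of -2.06 (SE 0.288, edgeR adjusted p = 0.00613), 1 of 47 members tested where 0.372% of 19379 genes were called. As the set was picked on such a contrast, nothing is read from this call. It was lost without control cross A (-1.92, edgeR adjusted p = 0.0564) or without maternal dose 2 C (-1.88, edgeR adjusted p = 0.067), when 0 genes of all tested were called, and with only the 6 libraries compared (edgeR adjusted p = 0.0654). DESeq2 called Pcdha3, Pcdha5 and Pcdha12, and gave 29 of the 58 members no adjusted p. The 11 alpha members tested had a median change of -1.13, the 15 beta members -0.28 and the 21 gamma members -0.65, beside 0.00 over all genes. The changes around the threshold were -2.24 for Pcdha10 (SE 0.541, edgeR adjusted p = 0.0893) and -0.88 for Pcdha12 (SE 0.215, edgeR adjusted p = 0.0931), both outside it. Among gamma members the largest changes were those of Pcdhga9 (-1.56), Pcdhga7 (-1.51) and Pcdhga6 (-1.39), all from levels of 0.477 to 0.759 CPM in the control cross, and none passed (edgeR adjusted p = 0.166, 0.167 and 0.177).

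In the paternal dose 1 cross, Pcdha8 was the member called, with a log2 change of -2.24 (SE 0.432, edgeR adjusted p = 0.0407), 1 of 47 where 0.201% of all genes were called, and again nothing is read from it. It was lost without any 1 of the 6 libraries (changes of -2.43 to -1.92, edgeR adjusted p = 0.0668 to 0.234) and with only those 6 in the fit (edgeR adjusted p = 0.113). DESeq2 gave 50 of the 58 members, Pcdha8 among them, no adjusted p. The median changes were -0.94 for alpha, -0.07 for beta and -0.45 for gamma members. Outside the threshold, Pcdha5 changed by -1.02 (edgeR adjusted p = 0.131) and Pcdha9 by -2.29 (edgeR adjusted p = 0.138).

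The other 3 crosses gave no call among 47 members with edgeR or DESeq2. They were compared with the same 3 control cross libraries as the crosses on which the set may have been picked. Their alpha values are therefore a description as well. In the biparental dose 2 cross 0.0155% of all genes were called, and 10 members, all lower, were at an unadjusted edgeR p under 0.05 (7.02% of all genes were). All 11 alpha members had changes below 0 there (50% of all genes did), with a median of -0.58; Pcdha8 was at -1.62 (SE 0.408, edgeR adjusted p = 0.392) and Pcdha10 at -1.97 (SE 0.534, edgeR adjusted p = 0.421). For maternal dose 1, 0.0103% of all genes were called, and 2 members, 1 higher and 1 lower, were at an unadjusted p under 0.05 (6.54% of all genes), with an alpha median of -0.25. In the paternal dose 2 cross 0.00516% of all genes were called, 1 member higher and 4 lower were at an unadjusted p under 0.05 (5.02% of all genes), and the alpha median was -0.23.

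**Figure D4:**
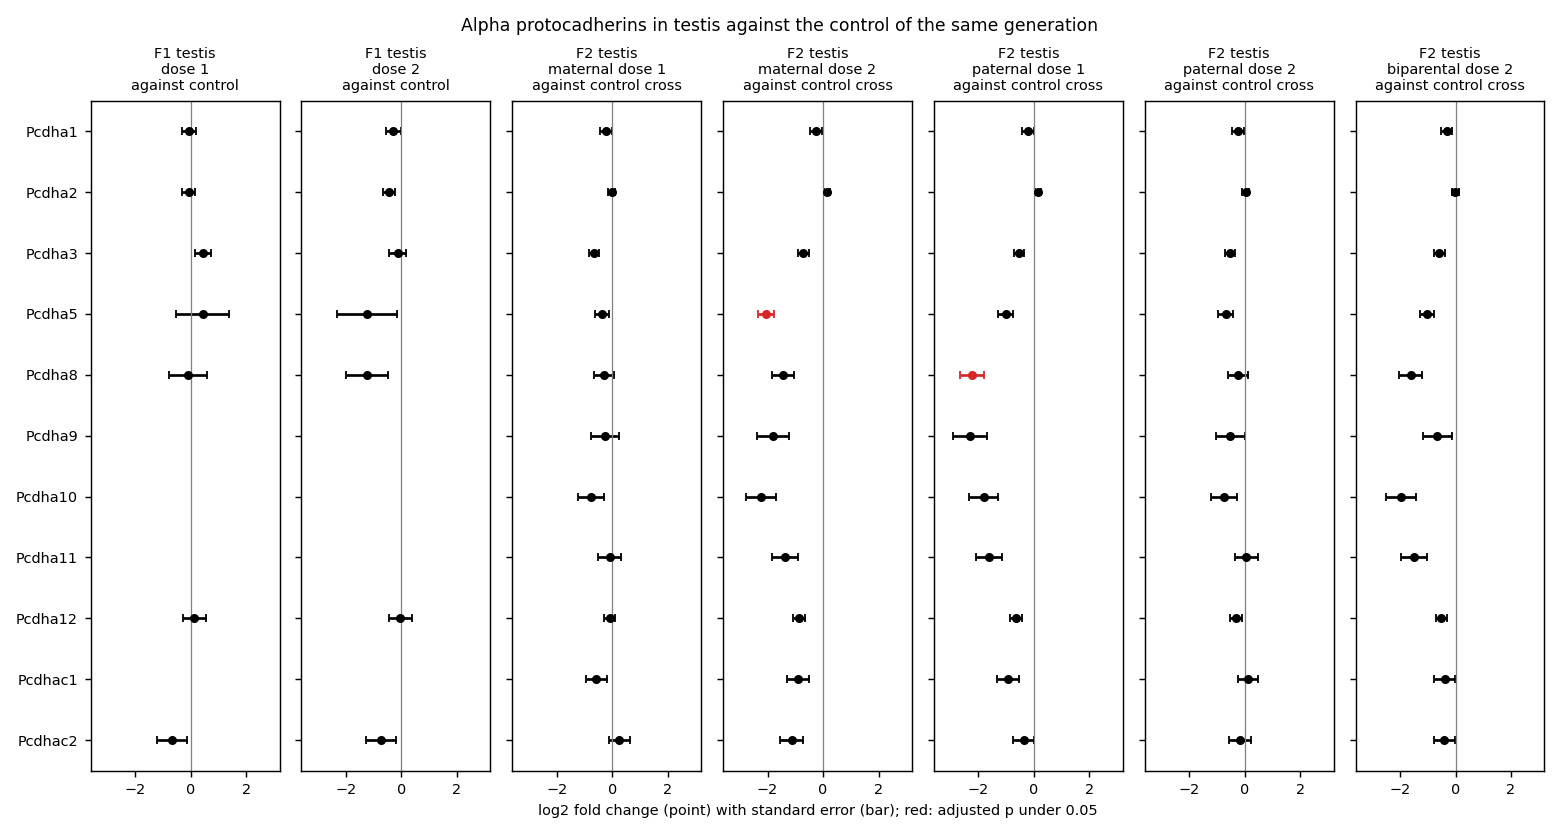
Log2 fold changes of the alpha members tested (points, with standard errors as bars) in 2 F1 and 5 F2 testis comparisons with the control of the same generation; red marks an edgeR adjusted p under 0.05. The red points are Pcdha5 in the maternal dose 2 cross and Pcdha8 in the paternal dose 1 cross, and the points of Pcdha2 lie near 0 in the 5 F2 panels.

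Direct tests of the exposed parent also gave no edgeR call among the 47 members. In maternal against paternal dose 2, where 0.119% of all genes were called, the lowest edgeR adjusted p of a member was 0.0647, for Pcdha5 (log2 difference -1.37, SE 0.300), with 1 member higher and 15 lower at an unadjusted edgeR p under 0.05 (16% of all genes), 8 of 11 alpha members among the latter. DESeq2 called 0 there, but it gave 54 of the 58 members no adjusted p, so its 0 says little. In maternal against paternal dose 1, with 0.0413% of all genes called, the largest alpha differences were 2.04 for Pcdha9 and 1.95 for Pcdha8 (edgeR adjusted p = 0.24 and 0.137), and 10 members, 5 of them alpha, were at an unadjusted edgeR p under 0.05 (11.5% of all genes), all higher in the maternal cross. DESeq2 called 1 member there, Pcdhgb2, where edgeR gave a difference of 0.66 (adjusted p = 0.129), and it gave 40 of the 58 members no adjusted p. These tests share no control library, but each holds one of the crosses on which the set may have been picked.

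Some nuclear-retained and ribosomal precursor RNAs moved with the low alpha members across the F2 testis crosses. Malat1 was at 789 to 1060 CPM in the control cross, 637 to 954 CPM in maternal dose 1, 267 to 373 CPM in maternal dose 2, 243 to 402 CPM in paternal dose 1, 543 to 732 CPM in paternal dose 2 and 388 to 599.5 CPM in biparental dose 2. Of the 6 RNAs on that list, Lars2 among them, 4 were called lower (edgeR adjusted p under 0.05) in maternal dose 2, 3 in paternal dose 1, 1 in biparental dose 2 and 0 in the other 2 crosses. Of all genes, 0.372%, 0.201% and 0.0155% were called in either direction in the first 3, and 0.0103% and 0.00516% in maternal dose 1 and paternal dose 2. The list was chosen with earlier results of these data known. Maternal dose 2 and paternal dose 1 are the crosses on which the set may have been picked. Neat1 and Meg3, also nuclear non-coding RNAs, did not pass in any of the 5. Their part in the alpha values was not tested.

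Among the other lists, none of the 14 regulators, 5 germ cell counterparts, 9 non-clustered protocadherins, 11 signalling partners or 10 flanking genes tested passed in any of the 5 F2 testis crosses against the control cross, and none of the markers of neurons, Schwann, Sertoli, Leydig, testis germ, granulosa, endothelial, smooth muscle and macrophage cells and oocytes did. The neuron markers had median changes of -0.55 to -0.28 over 6 genes in those crosses, and the testis germ cell markers of -0.09 to 0.00. The summed level of the 8 neuron markers listed was 35.4 to 47.8 CPM in the control cross, and each of the 5 crosses overlapped it.

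In ovary, no member passed in any of the 7 comparisons with controls, over 43 members tested (21 beta and 22 gamma; no alpha member passed the filter). In F1, 0% of 17896 genes were called at either dose, and 0 members had an unadjusted edgeR p under 0.05 or a call by DESeq2, where 8.33% of all genes at dose 1 and 3.75% at dose 2 were under that p. At dose 1, DESeq2 gave 34 of the 58 members no adjusted p. Pcdhgc3 was at 129.9, 107 and 115 CPM at dose 1 and at 129, 119 and 134 CPM at dose 2, which overlapped the controls, with log2 changes of -0.04 and 0.04 (SE 0.104 for both).

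F2 ovary varied more between libraries. Pcdhgc3 was at 72.5, 139.5 and 177 CPM in the maternal dose 1 cross, 114.7, 107 and 83.0 CPM in maternal dose 2, 91.5, 67.45 and 79.6 CPM in paternal dose 1, 67.6, 66.25 and 94.6 CPM in paternal dose 2, and 64.2, 55.9 and 57.0 CPM in biparental dose 2. Each cross overlapped the control cross, whose libraries ran from 44.8 to 113 CPM. The log2 change in maternal dose 1 was 0.76 (SE 0.305, edgeR adjusted p = 0.355). Without library A of that cross it was 1.05 (edgeR adjusted p = 0.0323), and Pcdhgc3, Pcdhgc4, Pcdhga11 and Pcdhgb5 were called, all higher, among 1360 of all genes. That fit rests on libraries B and C for the cross. The gamma members summed to 112, 206.5 and 251.1 CPM in A, B and C, the last the highest of the 27 ovary libraries. Library C also stood apart in Malat1, at 67.1 CPM against 318 and 324 CPM in A and B. In that cross 21 of 22 gamma members had changes above 0 (50.9% of all genes were below 0), with a median of 0.52, while the 21 beta members had a median of -0.16; 0% of 17400 genes were called there. In maternal dose 2 the medians were 0.34 and -0.16, and in biparental dose 2 they were -0.29 and -0.22, again with 0% of all genes called; in paternal dose 1, 0.00575% were called and in paternal dose 2, 0%. In the order maternal dose 1, maternal dose 2, paternal dose 1, paternal dose 2 and biparental dose 2, the members at an unadjusted edgeR p under 0.05 numbered 3, 3, 1, 1 and 5, beside 13.1%, 6%, 4.97%, 3.82% and 9% of all genes. DESeq2 called 0 in each, and in the same order it gave 15, 15, 9, 4 and 9 of the 58 members no adjusted p.

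**Figure D5:**
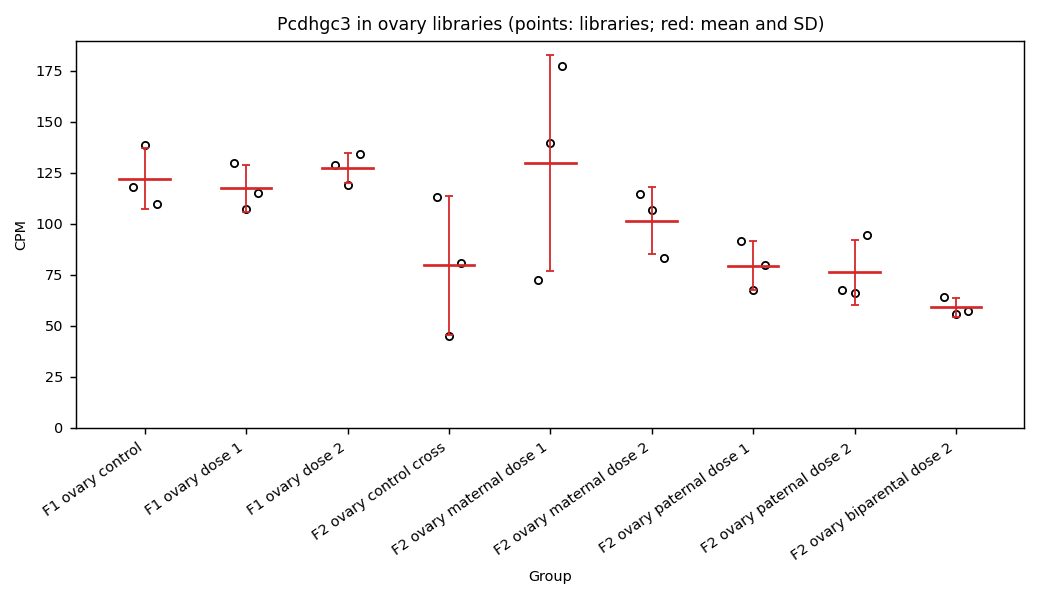
Pcdhgc3 in CPM in each of 27 ovary libraries (points) by group, with the mean and SD in red. The 9 F1 libraries lie between 107 and 138.8 CPM, and the 18 F2 libraries spread from 44.8 to 177 CPM with every exposed cross overlapping the control cross.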

How the data were processed

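RNA-seq of 27 testis and 27 ovary libraries was analysed from deposited whole-number counts per gene, not normalized by the authors. Per the submitters' processing notes, the tools named include TopHat2 2.1.1, Bowtie2 2.4.5, SAMtools 1.13 and featureCounts 2.0.3, with build mm39. The strand setting of the counting, its annotation and its handling of exons shared by array members are not stated in those notes or the labels. In the reference annotation 14 members overlap another gene, 10 of them only on the opposite strand.

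CPM are counts over the library total. Genes were filtered with filterByExpr (minimum count 10), scaled by TMM and tested with edgeR 4.0.16 (quasi-likelihood F test, R 4.3.3), in 1 fit per tissue and generation, or over all 54 libraries for testis against ovary, with Benjamini-Hochberg adjustment over all genes tested and a threshold of 0.05. The script was tested on simulated data. Alternatives were RLE scaling, no filter, a block for replicate letters, DESeq2 1.42.0, a fit of only 6 libraries and leaving out each library.

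Members and lists were chosen with earlier results of these data known. Values per library are given for the 3 highest members of each array in each tissue and for members that passed outside the tissue comparison; there, most passed and the others are given by counts. Genes that are no members come from the lists. Replicates differed by more than sampling noise. Same-lettered libraries deviated together (every correlation over 0.1) in 1 of 16 comparisons, F2 ovary biparental dose 2, at 0.135, 0.114 and 0.211; the labels do not say that letters pair samples.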

Additional observations from a re-analysis of the deposited data

Results flagged for a closer look

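Pcdhgb5, a B-type gamma member, lay on opposite sides of the control cross in the 2 tissues of the maternal dose 2 cross of F2. In testis its log2 change against the control cross was -0.86, with all 3 libraries below the 3 control cross libraries, and in ovary it was 0.64, with all 3 above. Of all genes, 1807 of 19379 lay below without overlap in testis and 1274 of 17400 above in ovary. Neither Pcdhgb5 change passed on its own, and the difference between the tissues was not tested. Most gamma members had the same signs in that cross: 18 of 21 members tested were below 0 in testis (median -0.65) and 19 of 22 above 0 in ovary (median 0.34). Of all genes, 9470 of 19379 were below 0 in testis and 8485 of 17400 above 0 in ovary. The summed gamma level did not show this, as it overlapped the control cross in both tissues. It was 36.1 to 43.3 CPM in testis (control cross 39.8 to 41.4 CPM). In ovary it was 126 to 179.1 CPM (control cross 73.2 to 171.3 CPM). The testis values come from a cross on which the set may have been picked and are a description only.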

How the results depend on the processing

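Of 198 member counts under alternatives, 182 stayed within 1.5 times the reported count. Most reported counts were 0, and a 0 that stayed 0 is included, so this total says little about stability. For F2 testis maternal dose 2, the count of 1 became 3 with the replicate block (Pcdha5, Pcdha10 and Pcdha12) and 3 with DESeq2, 0 with only the 6 libraries compared, and 0 to 1 when 1 library was left out. In that cross DESeq2 gave 29 of the 58 members no adjusted p. For paternal dose 1, the count of 1 became 0 with DESeq2 and with only the 6 libraries compared, and was 0 in all 6 fits that left out 1 library, so its range is 0 to 0. DESeq2 gave 50 of the 58 members no adjusted p there, so its 0 says little. Between maternal and paternal dose 1, DESeq2 called 1 member against 0, and between maternal and paternal dose 2 the replicate block called 1 (Pcdha5) against 0. In F2 ovary maternal dose 1, the count was 0 to 4 when 1 library was left out. The replicate block changed no other count. Same-lettered libraries deviated together in 1 of 16 comparisons, F2 ovary biparental dose 2, where the block gave 0 as before. The labels do not say that letters pair samples. Without F1 testis control B, the F1 tissue difference of Pcdha5 reversed to -0.67; over the 6 libraries left out in turn it ran from -0.67 to 2.19. The causes were not tested. Leaving out F1 testis dose 2 B and C, chosen after seeing the data, gave 0 members at dose 1. At dose 2 it leaves 1 library, assumed to vary like the other groups, so its count of 0 says nothing about stability. No paired fit was run between testis and ovary. Low alpha members rest on few counts per library, and the size of change detectable in them was not tested.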
